A study of Mus musculus with 6 samples.

Results

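The loci of 7 genes that mark GABAergic neurons were examined in 5 windows of the mouse genome (mm9): Gad1 (chr2:70341000-70490000), Gad2 (chr2:22455000-22600000), Slc32a1 (chr2:158386000-158492000), Dlx1 with Dlx2 (chr2:71317000-71437000) and Dlx5 with Dlx6 (chr6:6765000-6883000). The members were the accessible regions that overlapped a window by at least 1 bp, after the ATAC-seq peaks of all libraries had been merged where they touched. There were 20 such regions among 70575 on chromosomes 1 to 19 and X. Within the windows, regions were taken by position alone, whatever their scores or groups. The windows themselves were chosen with earlier results of these data known. No mm9 gene annotation was used here, so each region is placed in a window and is not assigned to a promoter, an exon or an intron.

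ATAC-seq, in which the transposase Tn5 cuts and tags open DNA, was carried out on the dentate gyrus of C57BL/6 mice 8 weeks old. The tissue had been infected with adeno-associated virus (AAV) that expressed EYFP, a fluorescent control protein, or cFos, a subunit of the AP-1 transcription factor, and each of the 3 EYFP and 3 cFos libraries came from its own animal. The protocol speaks of EYFP and/or cFos, so it does not say whether the cFos animals also received EYFP. The strain label ends in a different number in each sample, and the promoter of the virus, the sex of the animals and the infected cells are not stated by the sources used here. On chromosomes 1 to 19 and X the lists held 29896, 44285 and 33026 peaks in EYFP replicates 1 to 3 and 26715, 23986 and 34690 in cFos replicates 1 to 3. Peak lists carry no read counts, so read depth is unknown, and the lack of a call does not show closed chromatin.

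GABA is the main inhibitory transmitter of the forebrain. Gad1 and Gad2 encode the glutamate decarboxylases that make it, and Slc32a1 encodes the vesicular transporter that loads it into synaptic vesicles. The Dlx genes encode homeodomain transcription factors that lie in pairs and act in the development of forebrain interneurons. In the dentate gyrus the granule cells, which are glutamatergic, make up most neurons, and GABAergic interneurons such as basket cells are a minority. Tissue of this kind gives a mixed signal, in which fewer cells of a type and a less open locus in each cell cannot be told apart.

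Promoter sequences were matched by symbol in a RefSeq table on GRCm38.p6, which held 5 of the 7 genes, without Dlx5 and Dlx6. They are shown because cFos binds DNA as part of AP-1, so the letters of its site are of interest at these genes. Each runs from 250 bases before to 50 bases after the start of the transcript, 5′ to 3′ on the gene's strand, with every CpG in capitals. On that build they lie at chr2:70561879-70562178 (Gad1, plus strand), chr2:22622077-22622376 (Gad2, plus strand), chr2:158610508-158610807 (Slc32a1, plus strand), chr2:71529195-71529494 (Dlx1, plus strand) and chr2:71546705-71547004 (Dlx2, minus strand). These positions cannot be set beside the mm9 positions of the peaks.
Gad1: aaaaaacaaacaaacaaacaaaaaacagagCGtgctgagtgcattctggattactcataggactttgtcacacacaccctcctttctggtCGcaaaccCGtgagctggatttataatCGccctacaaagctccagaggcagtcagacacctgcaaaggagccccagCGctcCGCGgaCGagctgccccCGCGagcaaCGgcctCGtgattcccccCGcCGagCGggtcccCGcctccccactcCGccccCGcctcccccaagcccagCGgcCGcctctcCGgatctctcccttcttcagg
Gad2: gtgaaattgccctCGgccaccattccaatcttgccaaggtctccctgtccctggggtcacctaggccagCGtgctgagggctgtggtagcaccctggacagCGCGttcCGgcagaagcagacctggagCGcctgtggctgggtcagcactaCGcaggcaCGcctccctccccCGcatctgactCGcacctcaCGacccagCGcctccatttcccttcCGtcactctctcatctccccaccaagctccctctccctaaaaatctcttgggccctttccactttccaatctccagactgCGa
Slc32a1: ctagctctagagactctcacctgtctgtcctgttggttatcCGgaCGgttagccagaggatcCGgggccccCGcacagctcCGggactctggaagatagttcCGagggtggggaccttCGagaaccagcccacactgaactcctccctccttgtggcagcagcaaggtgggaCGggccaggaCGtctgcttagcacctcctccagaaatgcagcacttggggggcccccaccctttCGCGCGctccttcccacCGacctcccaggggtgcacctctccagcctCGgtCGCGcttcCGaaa
Dlx1: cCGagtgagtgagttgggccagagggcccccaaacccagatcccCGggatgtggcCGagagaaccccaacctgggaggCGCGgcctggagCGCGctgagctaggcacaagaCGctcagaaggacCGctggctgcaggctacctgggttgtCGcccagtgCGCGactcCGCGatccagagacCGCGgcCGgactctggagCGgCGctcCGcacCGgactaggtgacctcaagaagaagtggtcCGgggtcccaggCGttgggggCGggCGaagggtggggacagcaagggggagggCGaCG
Dlx2: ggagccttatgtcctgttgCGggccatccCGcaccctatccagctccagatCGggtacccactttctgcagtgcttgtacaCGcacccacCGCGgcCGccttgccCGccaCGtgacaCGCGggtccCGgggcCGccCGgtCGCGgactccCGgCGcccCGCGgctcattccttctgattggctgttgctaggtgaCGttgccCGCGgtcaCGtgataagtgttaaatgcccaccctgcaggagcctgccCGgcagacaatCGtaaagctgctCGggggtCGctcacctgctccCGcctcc

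The AP-1 site TGANTCA was found in 0 of the 5 promoters, against 7.81% of the 32851 promoters in the table. The cyclic AMP response element TGACGTCA, with 1.79% of all promoters, and the homeodomain core TAATTA, with 5.29%, were also in 0 of the 5. All 3 motifs were searched on both strands, and the absence says only that these letters are not in these windows of 300 bases. The promoters held 21 CpG in Gad1, 14 in Gad2, 17 in Slc32a1, 27 in Dlx1 and 29 in Dlx2, against a median of 7 over the table. Of all promoters, 63.7% had fewer than Gad2, 68.6% fewer than Slc32a1, 75.2% fewer than Gad1, 84.5% fewer than Dlx1 and 87.1% fewer than Dlx2.

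Called regions in the windows were about as frequent as elsewhere, but most of their peaks scored low within their own lists. The windows span 638 kb and held 31.3 regions per Mb, against 27.4 over chromosomes 1 to 19 and X, 28.0 on chromosome 2 and 30.5 on chromosome 6. Each peak carries a score assigned by the authors, given here also as a percentile, its rank among the peaks of the same list. The 6 libraries had 45 peaks in the windows, each in a separate combination of region and library, with scores from 51.03 to 206.89. Of these, 13 lay above the median score of their list (28.9%, where the background over all peaks is 50%), and 1 lay above the 75th percentile (2.22%, where the background is 25%). The 45 peaks are calls of 20 regions, so these shares count a site once for each library that called it. The median percentile of the peaks in the windows was 29.8, 50.8 and 29.2 in EYFP replicates 1 to 3 and 11.5, 25.2 and 40.7 in cFos replicates 1 to 3. EYFP replicate 2, which has the longest list, was the only library at or above the median of its own list.

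**Figure D1:**
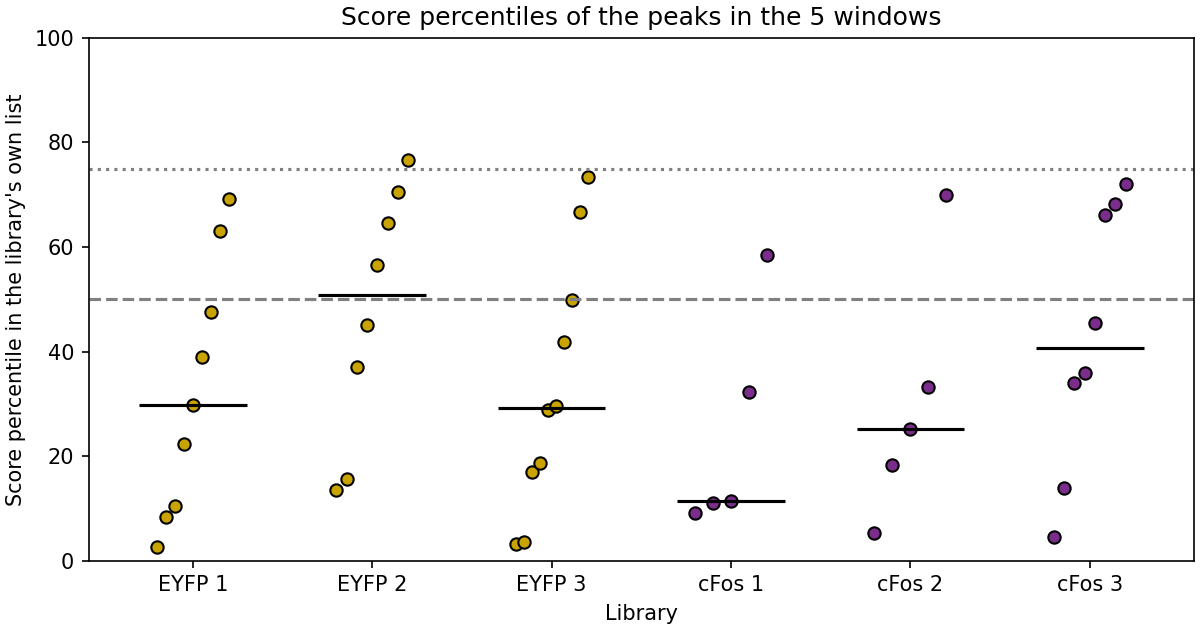
Score percentile (vertical axis, 0 to 100) of each peak in the 5 windows, by library, with EYFP libraries in yellow and cFos libraries in purple. Solid bars are the medians of each library, the dashed line is the list median and the dotted line the 75th percentile. A single peak, at 76.6 in EYFP replicate 2, lies above the dotted line.

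Few of the regions were called throughout, as was also the case over the whole series. All 6 libraries called 2 of the 20 regions, or 10%, where 16.8% of all merged regions were called in all 6. A single library called 9 of the 20, or 45%, against 43.7% of all regions, and the remaining 9 were called in 2 to 5 libraries (39.6% of all regions). cFos replicate 3 alone supplied 4 of the 9 single-library regions, cFos replicate 2 supplied 2, each EYFP library supplied 1 and cFos replicate 1 none. Over the series cFos replicate 3 supplied 20.5% of the single-library regions and EYFP replicate 2 supplied 31.9%. The median merged width was 476 bp, against 518 bp over all regions.

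**Figure D2:**
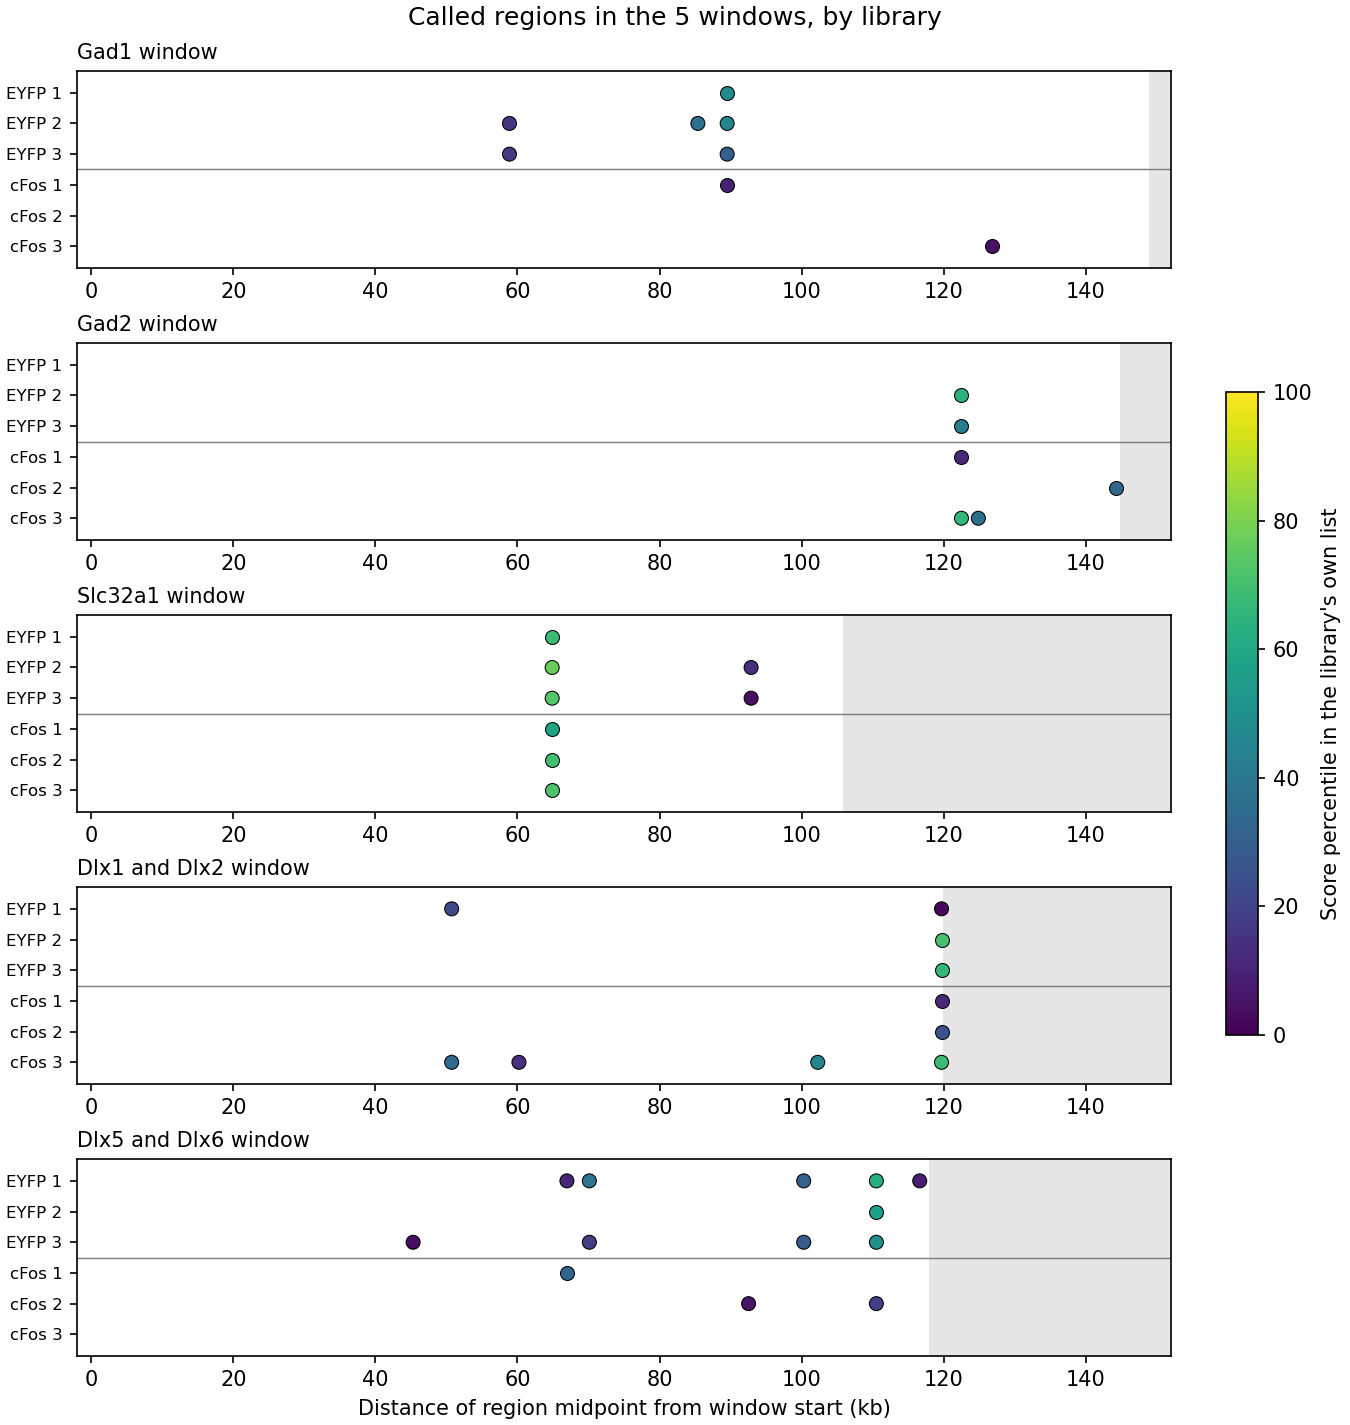
Position of each called region along its window (distance of the region's midpoint from the window start, in kb), with 1 row per library and colour for the score percentile in the library's own list. Grey areas lie beyond the end of a window. The only columns of 6 points are in the Slc32a1 window and at the far edge of the Dlx1 and Dlx2 window, and the Gad2 window is empty over its first 122 kb.

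The windows of the genes that make GABA held no region common to all libraries. The Gad1 window held 4 regions, and tiles of the same length over the genome held a median of 4. Its most widely called region (chr2:70430092-70430935, 844 bp) scored 88.82, 94.13 and 67.58 in EYFP replicates 1 to 3 and 53.69 in cFos replicate 1, and was not called in cFos replicates 2 and 3. The EYFP scores stood at a percentile of 40.7 ± 9.65 (SD, n = 3) and the cFos score at 9.20, so every library that called the region had it below its list median. Of all merged regions, 10.7% were likewise called in all 3 EYFP libraries and in fewer cFos libraries, and 2.71% the other way round. Among the 20 regions 2 did the former and 0 the latter.

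The widest region of the whole set also lay in the Gad1 window (chr2:70398772-70400979, 2208 bp). It was the only 1 of the 20 at least 2000 bp wide, or 5%, against 1.71% of all regions. It was called in EYFP replicates 2 and 3 only, with scores of 59.42 and 58.42, or percentiles 15.6 and 16.9. The peak of EYFP replicate 2 alone was 1835 bp wide. Of the 1101 peaks of that list that were at least as wide, 10 scored no higher, and their median percentile was 93.1. In EYFP replicate 3 the peak was 1117 bp wide, and 19 of the 3436 peaks at least as wide scored no higher. This comparison of width with score was chosen after the values were seen. The other regions of the window were single calls, chr2:70426157-70426629 in EYFP replicate 2 (score 81.95) and chr2:70467635-70467925 in cFos replicate 3 (score 51.70).

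The Gad2 window held 3 regions, all in its last part, and 122 kb from its start (chr2:22455000-22577244) had no call in any library. The first region (chr2:22577245-22577739, 495 bp) scored 144.55 and 80.37 in EYFP replicates 2 and 3 and 54.51 and 129.80 in cFos replicates 1 and 3. Both groups thus held a library near the 65th percentile (64.6 and 66.2), a library below its list median (41.8 and 11.1) and a library with no call. The other regions were single calls, chr2:22579637-22580088 in cFos replicate 3 (score 73.38) and chr2:22599121-22599312 in cFos replicate 2 (score 67.70). The edges of this window lie close to stronger regions. A region 0.117 kb past its end (chr2:22600117-22600711) was called in all 6 libraries at percentiles from 60.2 to 86.7. Another, 8.86 kb before its start (chr2:22442618-22446139), reached 3100, the top of the scale, in each library.

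The window of the vesicular transporter held the most constant region. Region chr2:158450303-158451463 (1161 bp) scored 138.93, 206.89 and 162.17 in EYFP replicates 1 to 3 and 102.22, 132.41 and 152.59 in cFos replicates 1 to 3. The lowest score was in cFos replicate 1 and the highest in EYFP replicate 2, and the groups overlapped. The mean percentile was 66.8 ± 7.25 in the cFos group and 73.0 ± 3.78 in the EYFP group (SD, n = 3 each), a difference of -6.21 within the spread between replicates (two-sided exact permutation p = 0.3). The cFos peaks there were narrower, at 505, 562 and 658 bp against 922, 1161 and 778 bp, with no overlap between groups (-379 bp, p = 0.1 in a two-sided exact permutation test, the floor for 3 against 3). Widths were apart in this direction in 34.2% of the regions that all 6 libraries called. Over those regions the median summed width per library averaged 671 ± 48.7 bp for cFos and 891 ± 90.9 bp for EYFP (SD, n = 3 each; -219 bp, exact permutation p = 0.1), so narrower cFos peaks were not particular to this site. In the RefSeq table on GRCm38.p6 the protein-coding neighbours of Slc32a1 are Arhgap40 and Actr5, and which gene this region belongs to was not determined. The second region of the window (chr2:158478697-158479066) was called in EYFP replicates 2 and 3, with scores of 58.01 and 51.59.

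Even this region ranked below the middle of the sites shared by all libraries. Its mean percentile exceeded that of 36.4% of the 11837 regions that all 6 libraries called. In each library it lay below the median of those regions, which ranged from 79.3 to 86.2 in EYFP and from 73.8 to 82.1 in cFos libraries.

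The Dlx1 and Dlx2 window held 4 regions, against a median of 3 in tiles of its length. The one called in all 6 libraries (chr2:71436056-71437312, 1257 bp) crosses the end of the window. Where it was a library's only peak there, the part inside the window was 599 of 911 bp in EYFP replicate 2 and 573 of 840 bp in EYFP replicate 3. In cFos replicates 1 and 2 it was 89 of 313 and 42 of 280 bp. Scores and widths of this region are those of the whole peaks. Its scores were 51.03, 170.90 and 133.92 in EYFP replicates 1 to 3 and 54.65, 61.66 and 136.49 in cFos replicates 1 to 3. Each group held high and low libraries, from percentile 2.58 to 70.6 in EYFP and from 11.5 to 68.2 in cFos libraries (two-sided exact permutation p = 0.9). Its mean percentile exceeded that of 2.98% of the regions called in all 6 libraries. The other regions were weaker. The first (chr2:71367553-71367926) scored 61.81 in EYFP replicate 1 and 71.25 in cFos replicate 3. cFos replicate 3 alone called chr2:71377080-71377337 (score 56.58) and chr2:71419040-71419480 (score 85.27).

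The Dlx5 and Dlx6 window held 7 regions, against a median of 3 and an upper quartile of 5 in tiles of its length, and none was called in all 6 libraries. The most widely called (chr6:6875185-6875840, 656 bp) scored 120.13, 118.78 and 92.32 in EYFP replicates 1 to 3 and 57.69 in cFos replicate 2. The EYFP percentile was 56.5 ± 6.62 (SD, n = 3), and the cFos call stood at 18.3. EYFP replicates 1 and 3 both called chr6:6834854-6835381 (77.43 and 59.51) and chr6:6865048-6865526 (67.61 and 66.78). Region chr6:6831656-6832266 was called in EYFP replicate 1 (54.85) and cFos replicate 1 (67.35). Single calls were chr6:6810015-6810605 in EYFP replicate 3 (51.45), chr6:6857384-6857673 in cFos replicate 2 (52.11) and chr6:6881411-6881815 in EYFP replicate 1 (53.75). EYFP replicates 1 and 3 thus had 5 and 4 peaks in this window, the other libraries 0 to 2.

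**Figure D3:**
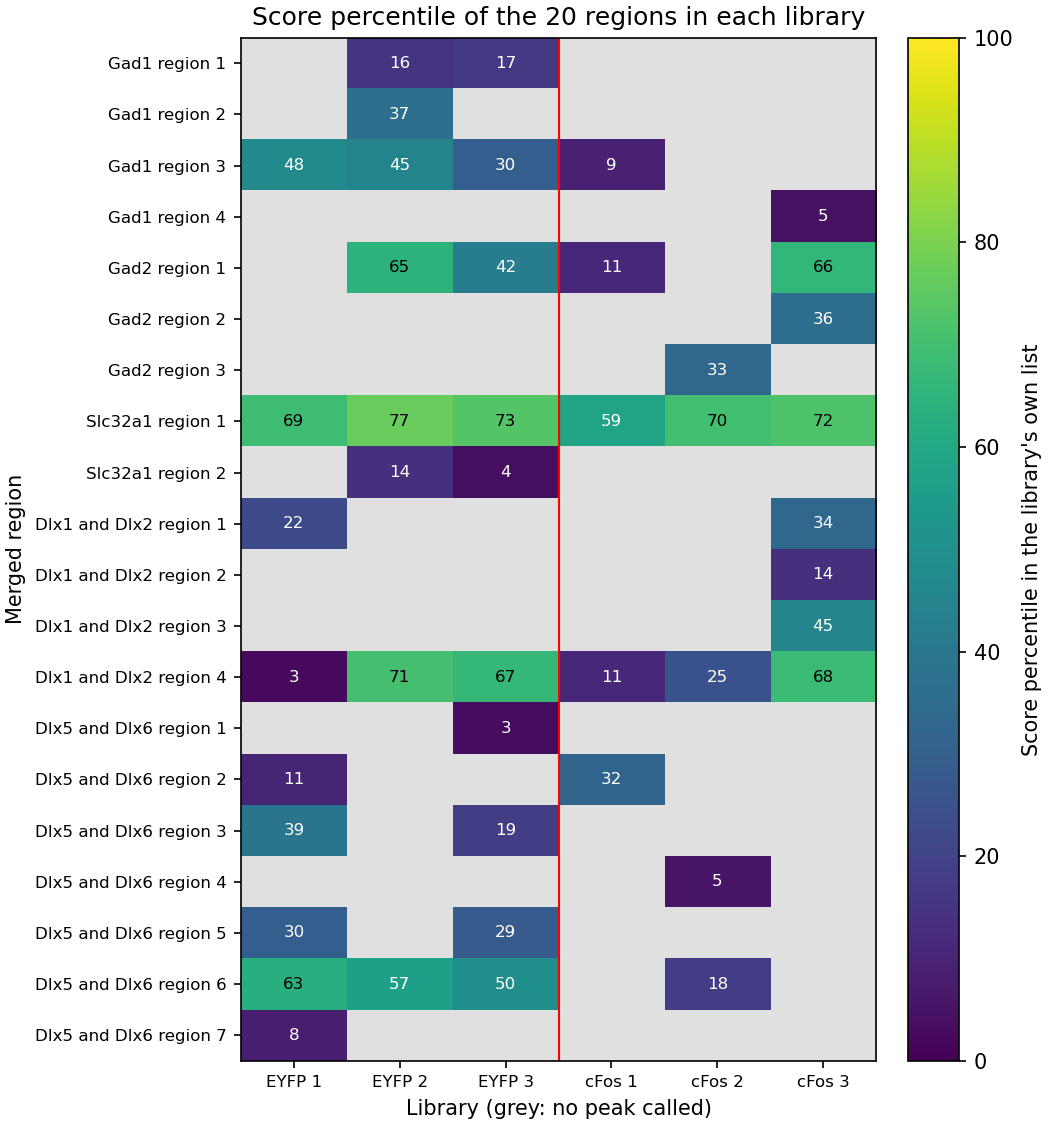
Score percentile of each of the 20 regions (rows, numbered along each window from its start) in each library (columns), with grey for no call and a red line between EYFP and cFos libraries. Only Slc32a1 region 1 and Dlx1 and Dlx2 region 4 are filled in all 6 columns.

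The nearest regions outside the other windows lay at distances from 0.594 to 287 kb. Those called in 1 library, at percentiles from 8.98 to 21.3, lay 3.14 kb before the Slc32a1 window, 9.77 kb after and 31.4 kb before the Dlx5 and Dlx6 window, 45.1 kb after the Dlx1 and Dlx2 window and 287 kb before the Gad1 window. The nearest after the Gad1 window, 5.005 kb away, was called in 3 libraries (14.4 to 37.9), and that after the Slc32a1 window, 0.594 kb away, in 4 (0.483 to 56.7). The nearest before the Dlx1 and Dlx2 window, 25.2 kb away, was called in all 6 (48.3 to 89.0). Tiles of the windows' lengths contained no region called in all 6 libraries in 57.8% to 65.6% of cases, so the absence of such a region from 3 of the 5 windows is common in the genome.

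The groups were then compared over all windows. EYFP replicates 1 to 3 had 9, 8 and 10 peaks in the windows and cFos replicates 1 to 3 had 5, 5 and 8. Per 10000 peaks of the list, these were 3.01, 1.81 and 3.03 in EYFP and 1.87, 2.08 and 2.31 in cFos libraries. The mean share was 2.09 ± 0.217 for cFos and 2.61 ± 0.700 for EYFP (SD, n = 3 each), a difference of -0.528 with overlapping groups (two-sided exact permutation p = 0.4). EYFP replicate 2 lay below every cFos library. Leaving it out gave a difference of -0.932, against -0.330 and -0.321 when EYFP replicate 1 or 3 was left out.

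The share of covered sequence in the windows was lower in every cFos library. Per 10000 bases under peaks, 2.06, 2.04 and 2.62 lay in the windows in EYFP replicates 1 to 3 and 1.25, 1.06 and 1.79 in cFos replicates 1 to 3. A large part of the EYFP bases came from the low-scoring Gad1 region of 2208 bp (percentiles 15.6 and 16.9). It supplied 1835 of the 6290 window bases in EYFP replicate 2 and 1117 of 5753 in EYFP replicate 3. Without those bases the share of EYFP replicate 2 would fall below the 1.79 of cFos replicate 3. The groups are thus apart only with that region counted, and the difference of means without it was not tested. The means were 1.37 ± 0.379 for cFos and 2.24 ± 0.332 for EYFP (SD, n = 3 each), a difference of -0.875 (p = 0.1 in a two-sided exact permutation test, its floor). With every list cut to the 23986 highest-scoring peaks the difference was -0.335 (exact permutation p = 0.3), with peaks above the pooled median score it was -0.410 (exact permutation p = 0.3), and with windows lengthened by 25 kb at both ends it was -0.0362 (exact permutation p = 0.8). Median peak width over the whole lists was also lower in cFos libraries, from 437 to 479 bp against 553 to 569 bp, and its part in the result was not tested.

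**Figure D4:**
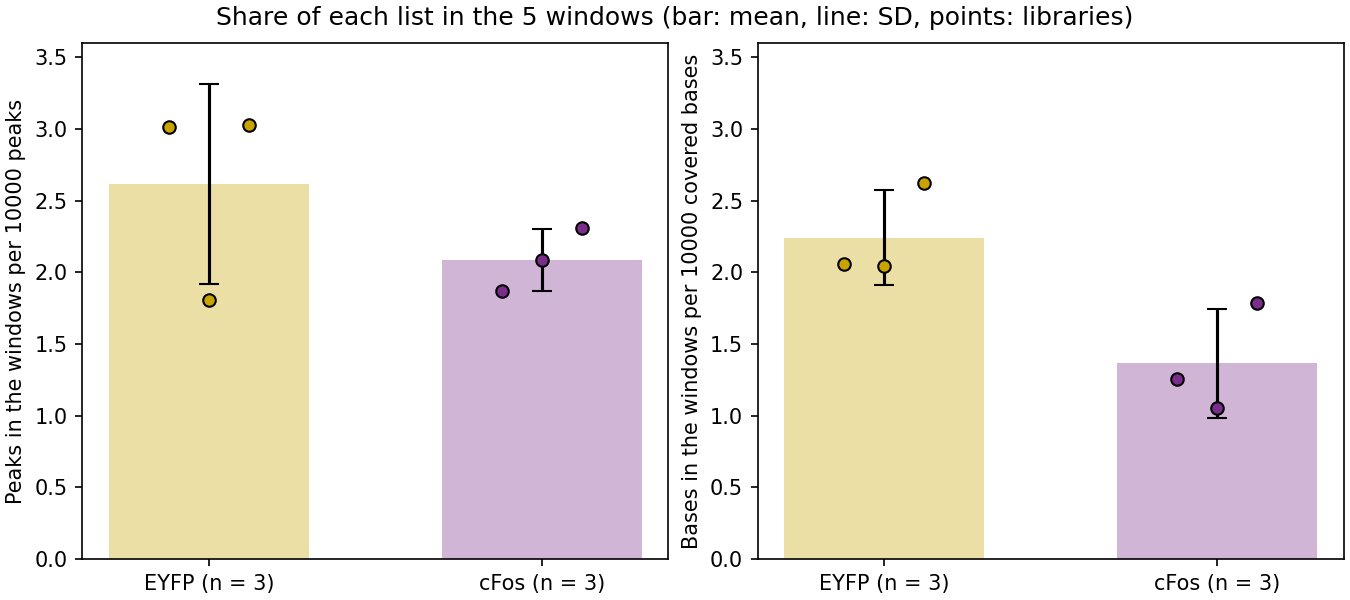
Peaks in the windows per 10000 peaks of the list (left) and bases in the windows per 10000 bases under peaks (right), with bars for the mean, lines for the SD and points for the 3 libraries of each group. The points of the groups overlap on the left and are apart on the right.

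No single window set the groups apart after adjustment. In the Gad2 window the cFos share was higher, at 0.456 ± 0.107 against 0.176 ± 0.157 per 10000 peaks (SD, n = 3 each), with no overlap (p = 0.1 in a two-sided exact permutation test and 0.5 after Benjamini-Hochberg adjustment over the 5 windows). These shares rest on 4 cFos and 2 EYFP peaks, of which the extra cFos calls were single-library regions. EYFP replicates 2 and 3 and cFos replicates 1 and 2 each had 1 peak there. The peak counts thus overlapped, and the shares of these libraries differ only by the lengths of their lists. The Dlx5 and Dlx6 window had the largest difference the other way, 0.403 ± 0.418 for cFos and 1.04 ± 0.739 for EYFP (two-sided exact permutation p = 0.3, adjusted 0.5). The adjusted value was 0.5 for the other windows as well, and with 3 libraries per group none could fall under 0.1.

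Regions called in 1 group only are rare in the series, so their absence from a set of 20 shows nothing about these loci. Of the 20, 0 were called in all 3 EYFP and no cFos libraries, a pattern of 1.97% of all regions, and 0 in all 3 cFos and no EYFP libraries, a pattern of 0.449%. On lists of equal length the windows held 13 regions, again with 0 of either kind (1.35% and 0.937% of all regions). More EYFP than cFos libraries called 9 of the 20, or 45%, against 47.6% of all regions, and more cFos than EYFP libraries called 6, or 30%, against 25.4%. On equal-length lists these were 4 and 6 of 13, against 33.6% and 34.6% of all regions. Of the 2 regions called in all 6 libraries, 0 had every cFos percentile above every EYFP percentile (2.03% of such regions over the series) and 0 had every one below (13.2%), which for 2 regions shows nothing about these loci.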

How the data were processed

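ATAC-seq peak lists of 3 EYFP and 3 cFos libraries, 1 animal each, were grouped by sample title. The submitters' processing notes name Bowtie2 and mm9. Each deposited list holds peak intervals with names that start with MACS, and a score that runs from 50 to 3100 and was used without scaling between libraries. The meaning of that score, the caller's settings, any control and the removal of duplicates are not stated by the sources used here. How many peaks are called varies with read depth, which is unknown, so no counting interval was given and the 3 animals per group set the precision. No label gives a batch.

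Peaks on chromosomes 1 to 19 and X were merged where they touched, giving 70575 regions, as bedtools 2.31.1 does. A region's score and percentile in a library are those of its highest peak there. Coordinates are printed 1-based. Tiles are adjoining stretches of a window's length from the first to the last region of each chromosome. Differences of group means were tested by two-sided exact permutation over 20 assignments, and the merging, calls and tests were checked on simulated data. The windows, members and region lists were chosen with earlier results of these data known. In each window the text names the most widely called region, the widest, and those called in all libraries or in 1 group only. The remaining regions, counts by number of calling libraries, tiles and the peaks above the 50th and 75th percentile were added after the values were seen. Alternatives were a stricter score, equal-length lists, merging across gaps of 200 bp, coverage of 50% of a region, every sequence name, windows changed by 25 kb, each library left out and the replicate number as a block. Using only what lies wholly inside a window was added after seeing the data. The highest share of identical intervals between 2 lists was 0.00834%, so no list was a copy of another. The tools were Python 3.11.15, pandas 2.3.3 and numpy 2.4.6, with matplotlib 3.10.9 for the plots.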

Additional observations from a re-analysis of the deposited data

How the results depend on the processing

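With 3 libraries per group the exact tests cannot fall under 0.1, so the alternatives bear on sizes and directions only. The differences in the share of peaks, the share of covered bases and the width of the 2 regions called in all 6 libraries, cFos minus EYFP, kept their direction in all alternatives run; the width over all such regions of the series went the same way (-219 bp). Leaving out each library gave -0.932 to -0.321 peaks per 10000, -1.09 to -0.684 bases per 10000, -422 to -226 bp, and -20.9 to -0.996 for the median percentile of those regions, which rests on 2 regions. That last difference, -8.94, turned to 0.526 on equal-length lists and to 0.821 with lengthened windows. The cause was not tested. The replicate block left the differences at -0.528, -0.875, -8.94 and -329 bp. Its p were 0.5, 0.25, 0.5 and 0.25 (exact permutation within numbers, smallest 0.25). Same-numbered libraries did not deviate together (correlations -0.0148, -0.00774 and 0.00300). These correlations cannot show whether same-numbered libraries were handled together, so pairing by number stays unknown. The count of 20 merged regions became 5 with the stricter score, 13 on equal-length lists, 10 with shortened and 32 with lengthened windows, and 16 to 20 without a library. The 2 regions called in all libraries became 1 with the stricter score, on equal-length lists, with shortened windows and with only regions wholly inside a window, 0 at 50% coverage and 6 with lengthened windows. They stayed 2 whichever library was left out. The 0 EYFP-only regions became 1 at 50% coverage and 0 to 2 without a library: 2 without EYFP replicate 1 or 2 and 1 without cFos replicate 1 or 2. The cFos-only count stayed 0 in the alternatives run. Regions with percentiles apart numbered 0, and 0 to 1 without a library, the 1 being without EYFP replicate 1. Read depth is unknown, so how far it limits these counts was not tested.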
